A study of Mus musculus with 21 samples.

Results

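The genes of cholesterol synthesis, fatty acid synthesis and sterol efflux were followed as 1 module of 35 listed genes in mouse CD8+ T cells. A gene was taken as measured when a transcript cluster of the array carried its symbol in the platform's annotation, and 33 of the 35 were found among the 19505 genes with 1 symbol. *Acat2* and *Tm7sf2* are not analysed here. The measured genes comprised 6 of the mevalonate steps, 10 of the steps that lead to squalene and on to cholesterol, 4 regulators or sterol carriers, 11 genes of fatty acid synthesis, elongation and desaturation, and the 2 efflux transporters *Abca1* and *Abcg1*.

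The study measured 21 Affymetrix arrays in 3 groups of 7 biological replicates each. Splenic T cells of wildtype mice, whose strain and age the labels do not give, were activated with beads carrying antibodies to CD3 and CD28. One group was then kept in medium conditioned by WEHI 3B, a mouse myelomonocytic leukaemia line that stands for acute myeloid leukaemia (AML) here. A second group was kept in the supernatant of bone marrow-derived dendritic cells (DC), and the third in fresh medium. The base medium of all groups was RPMI with 2-ME, the conditioned media were 48 h supernatants passed through a sterile filter, and CD8+ cells were separated again by MACS after 48 h, before RNA extraction. The leukaemia arm thus rests on 1 cell line, and the labels do not say whether each replicate came from a separate mouse, so p-values measure the spread between these samples, which may be technical. Values are log2 expression levels of 1 transcript cluster per gene, and differences are taken between arrays. Levels of different genes are set side by side for the cell type markers and for the low level of *Me1*, as a rough guide only.

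Cholesterol is built from acetyl-CoA through mevalonate, isoprenoid units and squalene. The transcription factor SREBP2, encoded by *Srebf2*, drives most of these enzyme genes when sterols in the endoplasmic reticulum are low, is escorted to the Golgi by SCAP, and is held back by INSIG proteins when sterols are high. Surplus sterols activate the nuclear receptor LXR, which raises the transporters ABCA1 and ABCG1 and, through SREBP1, genes of fatty acid synthesis and desaturation. Activated T cells switch this programme on as they grow and divide.

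The arrays had the marker profile of CD8+ T cells, except that *Cd4* lay above the listed markers of non-T cells. All 5 listed T cell markers (*Cd3e*, *Cd3d*, *Cd2*, *Cd8a*, *Cd8b1*) had gene means between 9.64 and 11.83 on the log2 scale, and 0 of 5 passed in any comparison. Gene means were 3.59 to 4.19 for the 5 myeloid markers, 3.38 to 5.25 for the 4 dendritic cell markers, 2.98 to 3.44 for the 2 NK cell markers, 3.24 to 6.96 for the 3 measured B cell markers and 2.92 to 5.43 for the 4 markers of reticular stromal cells, which 1 label field names in place of T cells, and 0 of these passed. *Cd4* was higher in AML-conditioned than in fresh medium by 0.79 (limma, adjusted p = 0.0150, or 0.0622 without AML replicates 4 and 5), and its part in the results below was not tested. Over all genes, the first principal component of deviations from group means (22.1% of the variance) separated replicates 1 to 3 from replicates 4 to 7. Replicates 1 to 3 scored from -25.5 to -4.12 on it, and replicates 4 to 7 from -0.04 to 16.2. AML replicates 4 and 5 were set off from the rest over all genes. They scored 25.6 and 24.5 on the second component (15.2%), where the other 19 arrays scored between -14.8 and 14.2. Counts by role, and the differences and spreads that these arrays moved most, are also given without them.

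The promoters of the module were read from RefSeq windows on build GRCm38.p6 that run from 250 bases before to 50 bases after each start, which matched 26 of the 33 measured genes with 32 windows. *Abcg1*, *Fads1*, *Fdft1*, *Fdps*, *Scd1*, *Sqle* and *Stard4* had no entry. Both strands were searched for 5 motifs. The NF-Y box CCAAT, bound by a factor that acts together with SREBPs, was found in 21 of the 26 genes, against 41.1% of all 27025 genes with a window. The Sp1 box GGGCGG was also found in 21 of 26, against 38.2%. The E-box CACGTG was found in 7 of 26, against 8.09%. The strict sterol regulatory element TCACNCCAC was found in 1 gene, *Hmgcs1*, against 1.44% of all genes, and the DR4 element of LXR, a direct repeat of AGGTCA with 4 bases between, in 0 of 26 genes, against 0.0148%. These counts describe the list, and a match is not a bound site. 4 windows are shown, 5′ to 3′ on the strand of the gene, with CCAAT and TCACNCCAC matches on either strand in capitals. They were chosen after the values were seen: *Hmgcs1* for its sterol element, *Cyp51* and *Hsd17b7* as synthesis genes that passed in some of the alternative fits below, and *Fads2* as the gene, among those with a window, whose level on AML replicates 4 and 5 was furthest below that on the other AML arrays.
Hmgcs1, chr13:119690101-119690400, plus strand: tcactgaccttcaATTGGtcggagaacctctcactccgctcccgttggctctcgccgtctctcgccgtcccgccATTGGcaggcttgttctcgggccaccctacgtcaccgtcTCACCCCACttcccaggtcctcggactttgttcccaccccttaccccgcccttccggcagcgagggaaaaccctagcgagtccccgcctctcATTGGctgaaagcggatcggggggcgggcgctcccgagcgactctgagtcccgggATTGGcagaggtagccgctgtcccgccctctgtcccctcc
Cyp51, chr5:4104648-4104947, minus strand: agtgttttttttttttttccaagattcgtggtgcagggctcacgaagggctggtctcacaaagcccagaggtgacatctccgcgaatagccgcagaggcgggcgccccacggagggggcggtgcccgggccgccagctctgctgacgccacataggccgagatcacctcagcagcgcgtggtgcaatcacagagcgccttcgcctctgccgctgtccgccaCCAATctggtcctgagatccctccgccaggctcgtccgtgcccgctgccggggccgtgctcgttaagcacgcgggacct
Hsd17b7, chr1:169969156-169969455, minus strand: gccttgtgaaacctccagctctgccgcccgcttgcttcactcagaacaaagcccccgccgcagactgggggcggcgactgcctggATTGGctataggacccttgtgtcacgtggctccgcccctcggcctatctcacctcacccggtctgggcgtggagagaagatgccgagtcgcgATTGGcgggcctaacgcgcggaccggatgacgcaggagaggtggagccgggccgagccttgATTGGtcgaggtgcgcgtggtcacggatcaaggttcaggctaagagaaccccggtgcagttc
Fads2, chr19:10101454-10101753, minus strand: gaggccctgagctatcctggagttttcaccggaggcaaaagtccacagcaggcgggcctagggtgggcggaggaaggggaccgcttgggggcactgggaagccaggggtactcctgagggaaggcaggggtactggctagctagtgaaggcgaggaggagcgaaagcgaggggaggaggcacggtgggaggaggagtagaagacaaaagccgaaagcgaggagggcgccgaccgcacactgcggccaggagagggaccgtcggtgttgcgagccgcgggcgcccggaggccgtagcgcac
The *Hmgcs1* window held 4 CCAAT boxes and the sterol element, at position -137 counted from the start. The *Cyp51* window held 1 CCAAT box, the *Hsd17b7* window 3 and the *Fads2* window 0. The searched motifs did not overlap one another in these 4 windows.

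AML-conditioned was set against fresh medium to ask whether this programme differs in activated CD8+ T cells kept in medium conditioned by leukaemia cells. The genes of the squalene to cholesterol steps were on average slightly higher and most fatty acid genes slightly lower, and 0 of the 33 genes passed the test. The largest positive differences were those of *Fasn* at 0.33 (SE 0.16) and *Hsd17b7* at 0.32 (SE 0.10), and the largest negative ones those of *Fads2* at -0.47 (SE 0.33) and *Scd1* at -0.42 (SE 0.44). Over all 19505 genes 541 passed an adjusted p of 0.05 in limma, which is 2.77%. At an unadjusted p under 0.05 there were 3 of 33 genes of the module (*Hsd17b7*, *Mvk* and *Fasn*), a share of 9.09% against 15.9% of all genes. The median difference was 0.02 over the 33 genes and -0.01 over all genes. The AML and fresh arrays overlapped for all 33 genes of the module, whereas they did not overlap for 0.795% of all genes.

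By role, 4 of 6 mevalonate genes were higher in AML-conditioned medium, with a median of 0.13, and so were 8 of 10 squalene to cholesterol genes, also with a median of 0.13. Of the regulators and carriers 1 of 4 was higher, with a median of -0.02. Of the fatty acid genes 2 of 11 were higher, with a median of -0.10. Both efflux genes were higher, with a median of 0.13. Over all genes 45.6% were higher. Many genes of the module moved together across arrays, so counts of genes higher, here and below, are not counts of separate observations. Without AML replicates 4 and 5, the arrays with the lowest levels of many of these genes, 25 of the 33 genes were higher and the median was 0.16, with 45.8% of all genes higher. By role, 4 of 6 mevalonate genes (median 0.19), 9 of 10 squalene to cholesterol genes (0.25), 2 of 4 regulators and carriers (0.03), 8 of 11 fatty acid genes (0.06) and both efflux genes (0.24) were then higher. For most of the fatty acid genes with lower means, these thus rested on the 2 arrays. *Acly*, *Acss2* and *Me1* stayed lower without them, by -0.02, -0.07 and -0.14. The 2 arrays were picked out after their values were seen, and leaving out low arrays by itself raises the AML means. In bulk RNA, fewer cells with a transcript and less of it per cell cannot be told apart.

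In DC-conditioned against fresh medium 26 of the 33 genes were higher, against 45.2% of all genes, and the median difference was 0.07 against -0.01 over all genes. All 10 squalene to cholesterol genes were higher in the means, by 0.02 to 0.22. In limma 0 of the 33 passed, and 0 of all 19505 genes (0%). At an unadjusted p under 0.05 there were 0 of 33 genes of the module and 1251 of all genes (6.41%). The groups did not overlap for 0 of 33 genes, against 0.113% of all genes. The largest of these differences were *Scd1* at 0.32 (SE 0.44), *Fads2* at 0.29 (SE 0.33), *Idi1* at 0.29 (SE 0.16), *Fasn* at 0.23 (SE 0.16) and *Stard4* at 0.23 (SE 0.12). These standard errors come from the fit over all groups, so the spread of the AML arrays enters them. *Scd1* had SDs of 0.51 among DC and 0.26 among fresh arrays, against 1.55 among AML arrays. For *Fads2* they were 0.43, 0.26 and 1.12 in the same order. This comparison and the one with AML-conditioned medium use the same 7 fresh arrays.

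In AML-conditioned against DC-conditioned medium 14 of the 33 genes were higher, against 51.9% of all genes, and the median difference was -0.06 against 0.01 over all genes. Again 0 of 33 passed, while 466 of all genes did (2.39%), and the groups did not overlap for 0 of 33, against 0.815% of all genes. The 5 genes of the module at an unadjusted p under 0.05 (15.2%, against 14.3% of all genes) were *Ebp* at -0.23 (SE 0.08, adjusted p = 0.140), *Hsd17b7* at 0.27, *Elovl6* at -0.34, *Stard4* at -0.28 and *Fads2* at -0.76 (SE 0.33). With AML replicates 4 and 5 left out the median turned to 0.07, with 19 of 33 genes higher. *Fads2* was then at -0.14, *Elovl6* at -0.13, *Stard4* at -0.16, *Ebp* at -0.17 and *Hsd17b7* at 0.24. The 7 AML arrays are the same as in the comparison with fresh medium, and the 7 DC arrays the same as in theirs.

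**Figure D1:**
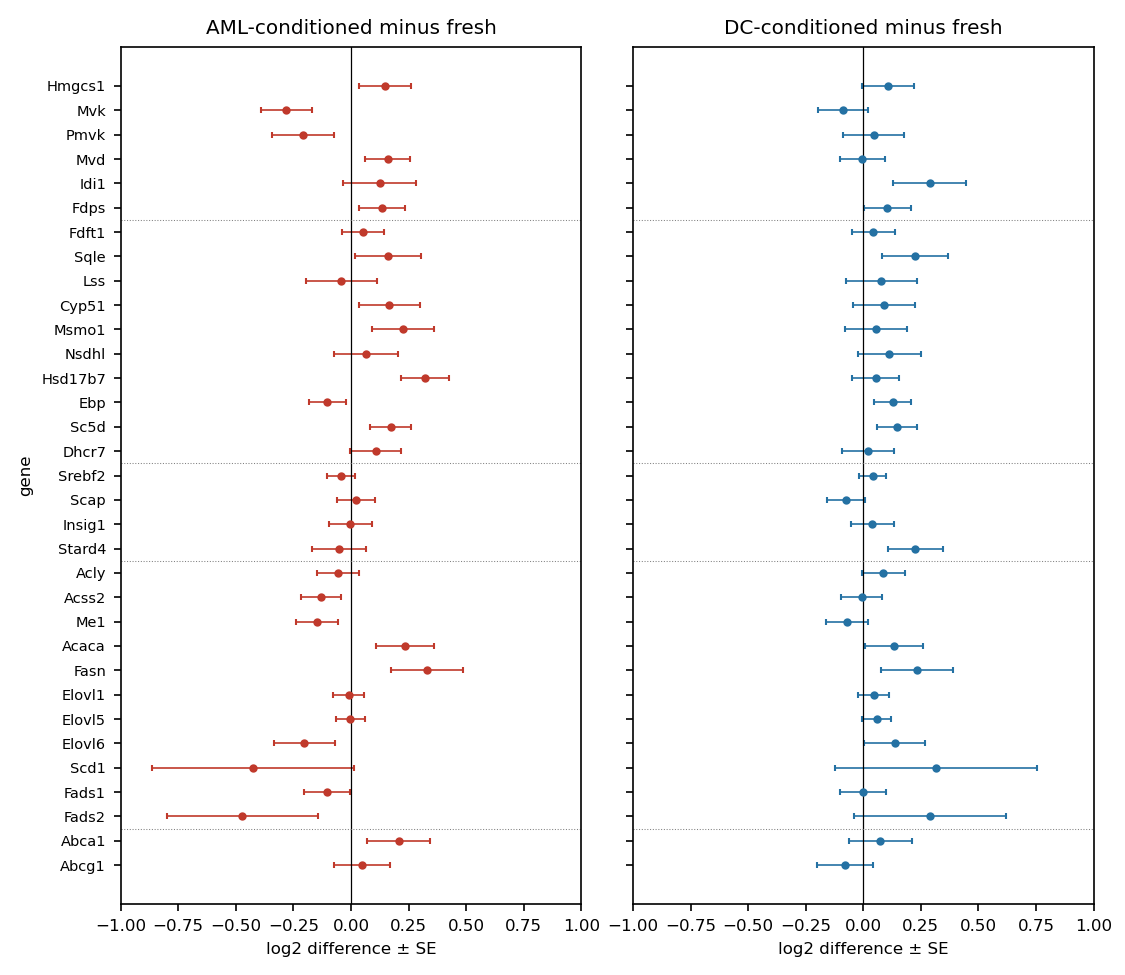
Log2 difference of each gene with its standard error (x axis) for AML-conditioned minus fresh medium (left) and DC-conditioned minus fresh medium (right), 7 arrays per group, with genes ordered by role from mevalonate steps at the top to efflux at the bottom. All 10 squalene to cholesterol genes lie right of 0 for DC-conditioned medium and 8 of 10 for AML-conditioned medium. *Scd1* and *Fads2* have the longest bars. The standard errors of both panels use a spread shared by all groups, AML arrays included.

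Among the mevalonate genes, *Mvk*, which encodes mevalonate kinase, had the smallest p. Its lowest, median and highest log2 levels were 6.04, 6.68 and 6.83 on the AML arrays, 6.69, 6.74 and 6.90 on the DC arrays, and 6.51, 6.87 and 7.14 on the fresh arrays. AML replicates 4 and 5 lay below every other array and the groups otherwise overlapped. The difference between AML-conditioned and fresh medium was -0.28 (SE 0.11, adjusted p = 0.188), and it was -0.11 (SE 0.09) without those 2 arrays.

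*Mvd*, the mevalonate diphosphate decarboxylase, ran at 7.69, 8.11 and 8.33 on the AML arrays, 7.59, 7.93 and 8.21 on the DC arrays and 7.74, 7.85 and 7.995 on the fresh arrays. Of the 7 AML arrays 5 lay above every fresh array, and replicates 4 and 5 lay at the low end. The difference between AML-conditioned and fresh medium was 0.16 (SE 0.10, adjusted p = 0.462), and 0.28 (SE 0.09, adjusted p = 0.198) when AML replicates 4 and 5 were left out. The other mevalonate genes differed by -0.21 (*Pmvk*, phosphomevalonate kinase), 0.13 (*Idi1*, the isopentenyl diphosphate isomerase), 0.13 (*Fdps*, farnesyl diphosphate synthase) and 0.15 (*Hmgcs1*, HMG-CoA synthase). Their standard errors were 0.13, 0.16, 0.10 and 0.11 in the same order, and without AML replicates 4 and 5 the differences were -0.02, 0.17, 0.22 and 0.24.

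Among the genes from squalene to cholesterol, *Hsd17b7*, whose product reduces the sterol ketone that NSDHL leaves, came nearest to the threshold. Its lowest, median and highest levels were 7.34, 7.51 and 7.55 on the AML arrays, 6.92, 7.25 and 7.58 on the DC arrays, and 6.85, 7.22 and 7.42 on the fresh arrays. Of the 7 AML arrays 6 lay above every fresh array, and AML replicates 4 and 5 were the highest of the 7. The difference between AML-conditioned and fresh medium was 0.32 (SE 0.10, 1.25-fold, adjusted p = 0.0955), with a 95% interval of 0.11 to 0.53. It was 0.30 (SE 0.12, adjusted p = 0.339) without AML replicates 4 and 5, and it passed with replicates 1 to 3 and 4 to 7 as a block (adjusted p = 0.0364).

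*Sc5d*, the lathosterol desaturase, ran at 10.05, 10.32 and 10.53 on the AML arrays, 10.02, 10.29 and 10.47 on the DC arrays and 9.91, 10.12 and 10.30 on the fresh arrays. Of the AML arrays 5 lay above every fresh array, and replicates 4 and 5 were the 2 that did not. The difference from fresh medium was 0.17 (SE 0.09, adjusted p = 0.347) for AML-conditioned and 0.15 (SE 0.09) for DC-conditioned medium. It was 0.27 (SE 0.09, adjusted p = 0.197) for AML-conditioned medium without replicates 4 and 5.

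The 8 other genes of these steps differed by -0.10 to 0.22 between AML-conditioned and fresh medium. The largest of these was *Msmo1*, a sterol methyl oxidase, at 0.22 (SE 0.13), followed by *Cyp51*, the lanosterol demethylase, at 0.17 (SE 0.13) and *Sqle*, squalene epoxidase, at 0.16 (SE 0.14). *Dhcr7*, which makes the last reduction to cholesterol, was at 0.11 (SE 0.11), *Nsdhl*, a sterol dehydrogenase, at 0.06 (SE 0.14) and *Fdft1*, squalene synthase, at 0.05 (SE 0.09). *Lss*, lanosterol synthase, was at -0.04 (SE 0.15) and *Ebp*, a sterol isomerase, at -0.10 (SE 0.08). On the other 5 AML arrays these 8 differences ran from -0.04 for *Ebp* to 0.32 for *Msmo1*, with *Nsdhl* at 0.28, *Cyp51* at 0.26, *Sqle* at 0.23, *Dhcr7* at 0.22, *Fdft1* at 0.19 and *Lss* at 0.07.

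The regulators differed little between AML-conditioned and fresh medium. *Srebf2* had lowest, median and highest levels of 10.78, 10.83 and 11.05 on the AML arrays, 10.89, 10.96 and 10.98 on the DC arrays and 10.79, 10.90 and 11.02 on the fresh arrays. The AML and fresh arrays overlapped over most of their range, and 5 of the 7 AML arrays lay below every DC array. The difference was -0.04 (SE 0.06, adjusted p = 0.796) between AML-conditioned and fresh medium, with a 95% interval of -0.16 to 0.08, and -0.08 (SE 0.06, adjusted p = 0.576) between AML-conditioned and DC-conditioned medium. *Scap*, the escort of SREBP2, differed by 0.02 (SE 0.08) and *Insig1* by less than 0.01 in size (SE 0.09), and *Insig1* by 0.14 (SE 0.08, adjusted p = 0.551) without AML replicates 4 and 5.

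*Stard4*, a cytosolic sterol carrier, ran at 8.01, 8.30 and 8.84 on the AML arrays, 8.40, 8.68 and 8.90 on the DC arrays and 8.06, 8.40 and 8.69 on the fresh arrays. Of the 7 AML arrays 4 lay below every DC array. It differed by -0.05 (SE 0.12, adjusted p = 0.893) between AML-conditioned and fresh medium and by -0.28 (SE 0.12, adjusted p = 0.259) between AML-conditioned and DC-conditioned medium. Leaving out AML replicates 4 and 5, these values were 0.06 and -0.16 (SE 0.12 each).

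*Fasn* and *Acaca*, which build the fatty acid chain, had higher means in AML-conditioned than in fresh medium, and the other 9 fatty acid genes had lower ones, with 0 of 11 passing. On the AML arrays other than replicates 4 and 5 the means of 6 of those 9 (*Elovl1*, *Elovl5*, *Elovl6*, *Scd1*, *Fads1* and *Fads2*) were higher than in fresh medium, by 0.0027 to 0.46. *Fasn*, fatty acid synthase, had lowest, median and highest levels of 8.50, 8.73 and 9.06 on the AML arrays, 8.20, 8.86 and 9.24 on the DC arrays, and 8.15, 8.35 and 8.88 on the fresh arrays. Of the AML arrays 3 lay above every fresh array. The difference was 0.33 (SE 0.16, 1.26-fold, adjusted p = 0.303).

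*Acaca*, the acetyl-CoA carboxylase that supplies malonyl-CoA, ran at 7.61, 8.06 and 8.22 on the AML arrays, 7.46, 8.03 and 8.18 on the DC arrays, and 7.37, 7.75 and 7.94 on the fresh arrays. Of the AML arrays 4, replicates 4 to 7, lay above every fresh array. The difference was 0.23 (SE 0.13, adjusted p = 0.379). *Acly*, *Acss2* and *Me1*, which supply acetyl-CoA and NADPH, differed by -0.06, -0.13 and -0.15 in that order, each with an SE of 0.09. *Me1* had a level of 2.99 to 3.59 over all 21 arrays, below the 25th percentile of gene means at 3.67, where differences on this scale are compressed.

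Of the elongases, *Elovl1* and *Elovl5* differed from fresh medium by at most 0.01 in size (SE 0.07 and 0.06) in AML-conditioned medium, and *Elovl6* by -0.20 (SE 0.13). The difference of *Elovl6* without AML replicates 4 and 5 was 0.0027 (SE 0.11). Of the desaturases, *Fads1* differed by -0.10 (SE 0.10), or by 0.07 (SE 0.07) without those arrays, and *Scd1* and *Fads2* by the values given above, with 95% intervals of -1.33 to 0.48 and of -1.15 to 0.21.

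Both sterol exporters overlapped between the media. *Abca1* had lowest, median and highest levels of 4.76, 5.62 and 5.84 on the AML arrays, 5.05, 5.27 and 5.69 on the DC arrays, and 4.96, 5.21 and 5.46 on the fresh arrays. AML replicates 1 to 4 lay above every fresh array, and replicate 5 lay below all other 20. The difference from fresh medium was 0.21 (SE 0.14, adjusted p = 0.494) for AML-conditioned and 0.07 (SE 0.14) for DC-conditioned medium. The first of these was 0.30 (SE 0.12, adjusted p = 0.362) with AML replicates 4 and 5 left out.

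*Abcg1* ran at 7.31, 7.67 and 7.99 on the AML arrays, 7.29, 7.61 and 7.89 on the DC arrays, and 7.32, 7.60 and 7.996 on the fresh arrays. The differences from fresh medium were 0.05 (SE 0.12, adjusted p = 0.909) for AML-conditioned and -0.08 (SE 0.12) for DC-conditioned medium. For AML-conditioned medium without replicates 4 and 5 it was 0.18 (SE 0.12). In all 3 media its mean was lower in replicates 4 to 7 than in replicates 1 to 3, by 0.44 on the AML arrays, 0.32 on the DC arrays and 0.36 on the fresh arrays.

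**Figure D2:**
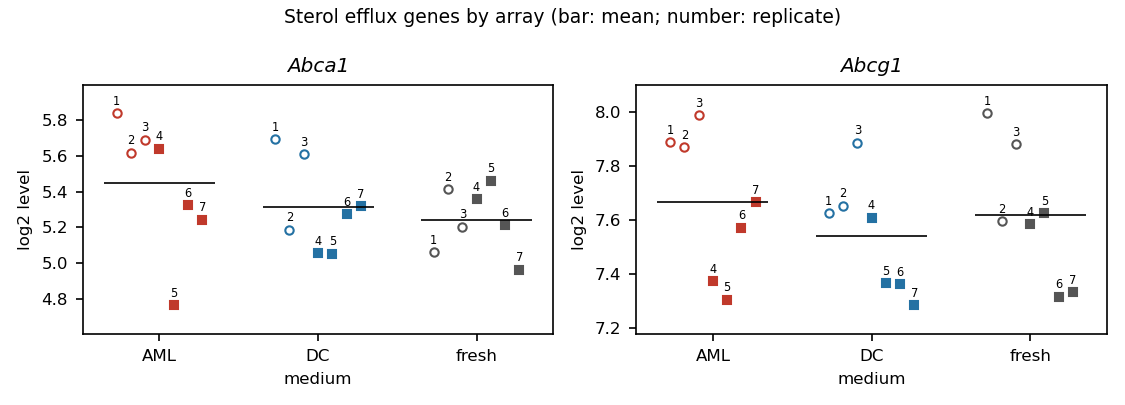
Log2 level (y axis) of *Abca1* and *Abcg1* on each array by medium, AML-conditioned, DC-conditioned and fresh, with the replicate number beside each point, open circles for replicates 1 to 3, filled squares for 4 to 7, and a bar at the mean of 7 arrays. The 3 media overlap for both genes, and in AML replicate 5 *Abca1* sits at 4.76, the lowest of the 21 values.

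Of 30 other genes of these pathways, among them regulators, desaturases and sterol handling genes that are no members, 19 were measured and 0 passed in any of the 3 comparisons. Their median difference between AML-conditioned and fresh medium was -0.03, with single genes between -0.40 and 0.21 and a smallest adjusted p of 0.194.

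The widest spread of the module was that of *Scd1* and *Fads2* among the AML arrays. *Scd1*, the stearoyl-CoA desaturase that makes monounsaturated fatty acids, had levels of 6.63 and 6.81 on AML replicates 4 and 5, while the other 5 AML arrays lay between 9.47 and 10.33. The DC arrays lay between 8.83 and 10.13 and the fresh arrays between 9.04 and 9.68. These 2 arrays lay below all 19 others, and the 5 other AML arrays overlapped with both DC and fresh arrays.

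*Fads2*, the desaturase that starts the synthesis of long polyunsaturated fatty acids, had levels of 7.72 and 7.69 on AML replicates 4 and 5, while the other 5 AML arrays lay between 9.39 and 10.40. The DC arrays lay between 9.40 and 10.37 and the fresh arrays between 9.23 and 9.98. Its neighbour on the chromosome, *Fads1*, the next desaturase of the same pathway, was at 8.12 and 8.01 on the 2 arrays, while the other 19 lay between 8.41 and 8.75. No other protein-coding gene is annotated between the pair. *Elovl6*, which elongates saturated chains, was at 8.70 and 8.84 on the 2 arrays, and the other 19 lay between 9.20 and 9.85.

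**Figure D3:**
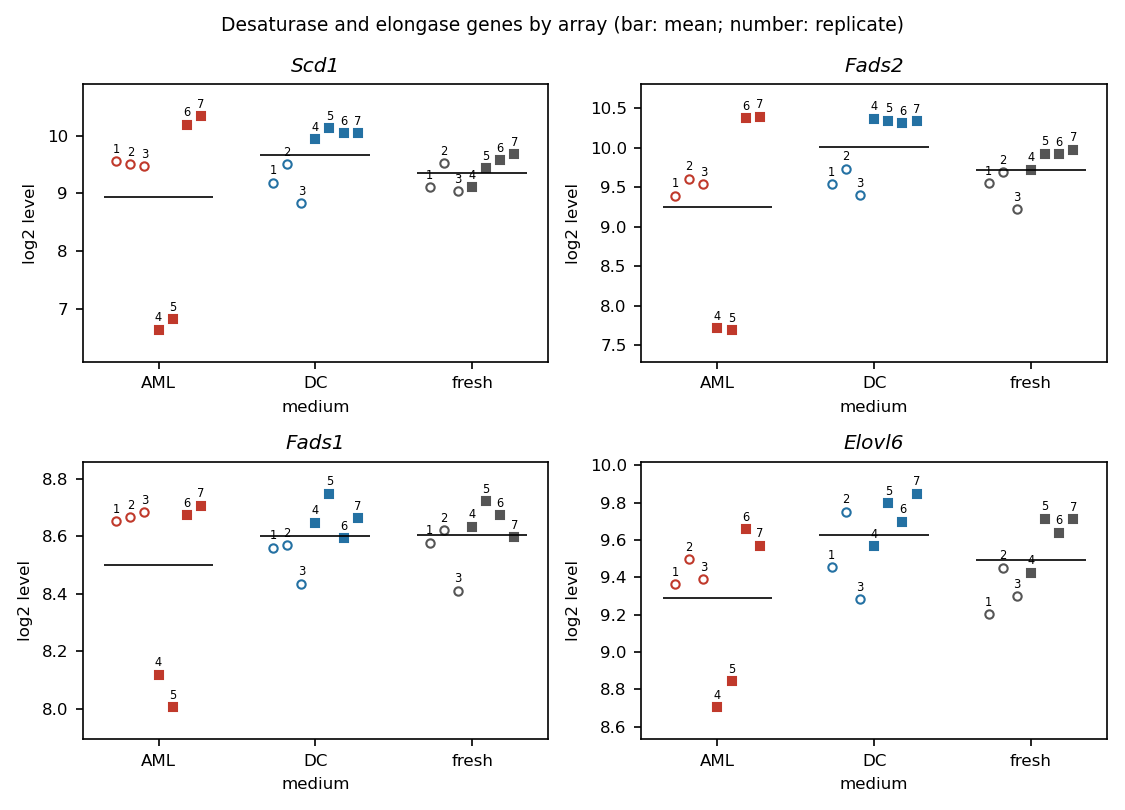
Log2 level (y axis) of *Scd1*, *Fads2*, *Fads1* and *Elovl6* on each array by medium, AML-conditioned, DC-conditioned and fresh, with the replicate number beside each point, open circles for replicates 1 to 3, filled squares for 4 to 7, and a bar at the mean of 7 arrays. AML replicates 4 and 5 lie below all 19 other arrays for each of the 4 genes, at 6.63 and 6.81 for *Scd1* and at 7.72 and 7.69 for *Fads2*.

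*Nsdhl*, *Insig1*, *Pmvk* and *Ebp* had a wider spread among AML than among fresh arrays. They are described after their values were seen. Some other sterol genes went the other way. The SDs among AML and fresh arrays were 0.18 and 0.29 for *Sqle* and 0.21 and 0.33 for *Cyp51*. They were 0.20 and 0.31 for *Msmo1* and 0.25 and 0.46 for *Idi1*. *Nsdhl* had levels of 9.98, 9.64, 9.93, 9.29, 9.13, 10.12 and 10.16 on AML replicates 1 to 7, with SDs of 0.41 among AML, 0.22 among DC and 0.16 among fresh arrays. *Insig1*, which holds SREBP2 back, had levels of 9.38, 9.41, 9.49, 8.88, 8.89, 9.54 and 9.09 on AML replicates 1 to 7, while the DC arrays lay between 9.21 and 9.36 and the fresh arrays between 9.07 and 9.36. AML replicates 4 and 5 were below, and 4 of the other 5 AML arrays above, every fresh array. *Pmvk* had SDs of 0.39 among AML, 0.25 among DC and 0.12 among fresh arrays. *Ebp* averaged 8.51 ± 0.21 among AML, 8.74 ± 0.06 among DC and 8.61 ± 0.11 among fresh arrays (SD, n = 7 each), and 4 of 7 AML arrays lay below every DC array.

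The same 2 arrays were low for most of the sterol genes, by less. Both lay below all 19 other arrays for 10 of the 33 genes (30.3%, against 7.08% of all genes): *Mvk*, *Pmvk*, *Fdft1*, *Nsdhl*, *Srebf2*, *Insig1*, *Elovl6*, *Scd1*, *Fads1* and *Fads2*. For *Srebf2* the 2 arrays were only just below the rest, both at 10.78 against 10.79 on the lowest other array. They lay above all others for 0 of 33, against 5.16% of all genes. Their mean was below that of the other 5 AML arrays for 29 of the 33 genes, against 49.2% of all genes, and the median gap was -0.34 over the module and 0.00 over all genes. The exceptions were *Hsd17b7*, *Scap*, *Acaca* and *Fasn*. Only *Scd1* and *Fads2* of the module were lower by at least 1 log2 unit, as were 0.631% of all genes, and among the falls of all 19505 genes they ranked 3rd and 11th. The 2 arrays were picked out after their values were seen, so these figures describe them and carry no test.

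Other transcripts moved on these arrays too. *Slc2a1*, which encodes the glucose transporter GLUT1, was at 9.65 and 9.24 on AML replicates 4 and 5, at 10.16 to 10.31 on AML replicates 1 to 3 and at 11.10 and 11.16 on AML replicates 6 and 7. It lay between 10.61 and 11.38 on the DC arrays and between 10.95 and 11.31 on the fresh arrays. *Cd8a* was at 11.85 and 11.88 on AML replicates 4 and 5, and at 11.62 to 11.77 on the other 19 arrays. The part of these differences in the low desaturase levels was not tested.

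As standard deviations, *Scd1* had 1.55 among AML, 0.51 among DC and 0.26 among fresh arrays, and *Fads2* had 1.12 among AML, 0.43 among DC and 0.26 among fresh arrays. *Hsd17b7* ran the other way, with 0.08 among AML, 0.26 among DC and 0.23 among fresh arrays. The AML group had the widest spread for 17 of the 33 genes (51.5%, against 32.4% of all genes), and the median SD over the module was 0.22 in AML-conditioned, 0.22 in DC-conditioned and 0.18 in fresh medium. Without AML replicates 4 and 5, whose removal by itself narrows the group, the AML SD was 0.42 for *Scd1*, 0.48 for *Fads2* and 0.16 in the median, and AML was widest for 5 of the 33 genes (15.2%, against 24.8% of all genes). A limma test of the absolute deviations from the group median called 0 genes of the module and 0 of all 19505 (0%) in each of the 3 comparisons. At an unadjusted p under 0.05, 4 of 33 genes (*Fads2*, *Pmvk*, *Scd1* and *Insig1*) were wider in AML-conditioned than in fresh medium, a share of 12.1% against 2.11% of all genes, and 1 of 33 (*Hsd17b7*) was narrower, against 1.96% of all genes. Between AML-conditioned and DC-conditioned medium 2 of 33 (*Insig1* and *Ebp*) were wider in AML-conditioned medium, against 1.97%, and 2 of 33 (*Hsd17b7* and *Scap*) were narrower, against 1.09%. With 7 arrays per group this test needs very large differences in spread, so the absence of calls does not show equal spread.

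**Figure D4:**
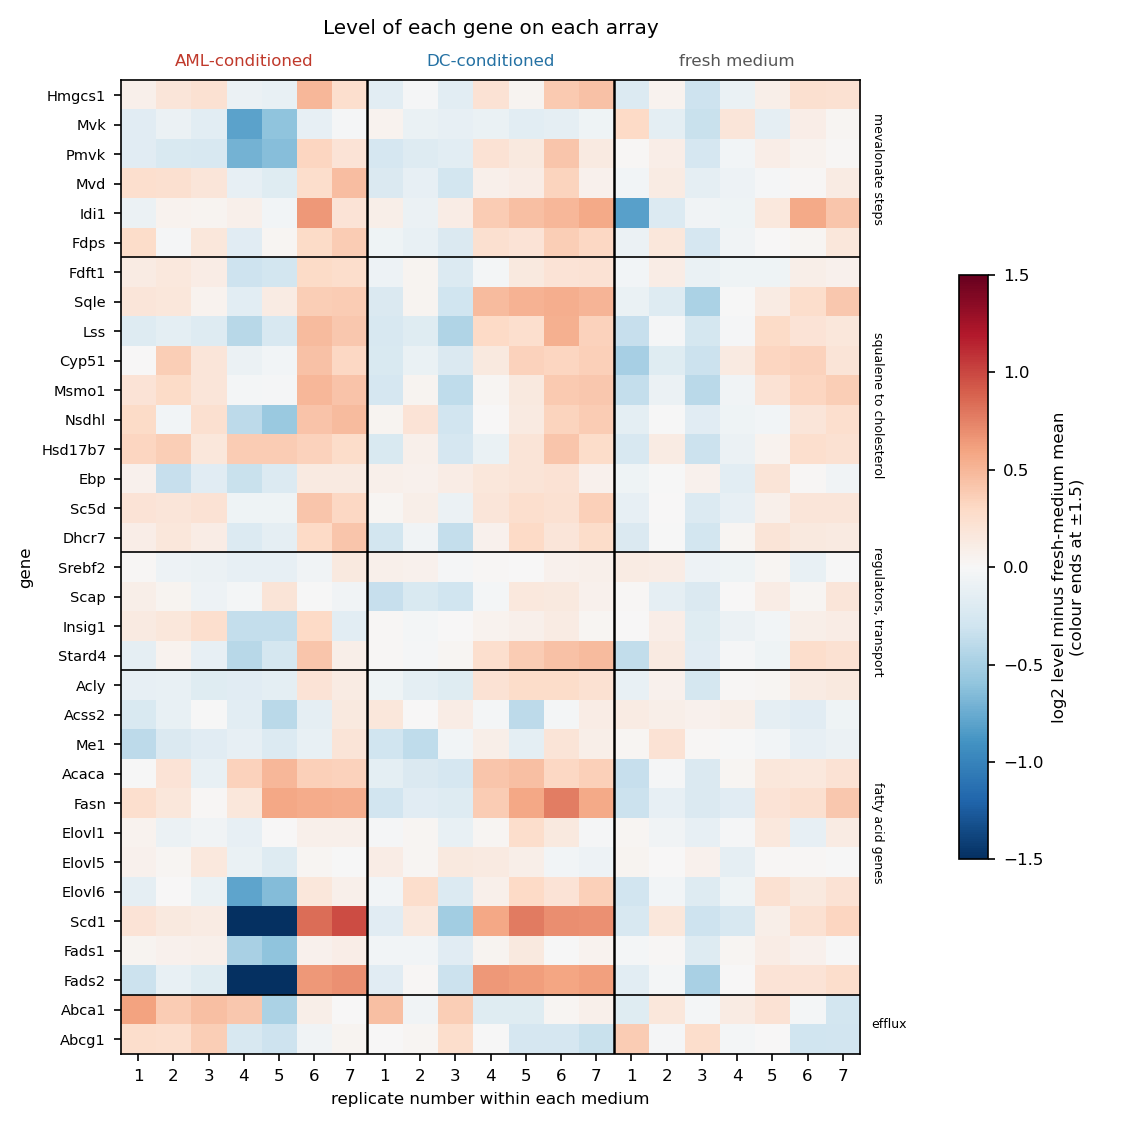
Log2 level of each of the 33 genes (down the page, grouped by role) on each of the 21 arrays (across, AML-conditioned, DC-conditioned and fresh medium, replicates 1 to 7 in each), as the difference from the mean of the 7 fresh arrays, with colours that end at 1.5 in either direction. AML replicates 4 and 5 are blue for most genes and darkest for *Scd1* and *Fads2*, and replicates 4 to 7 of the DC group and 6 and 7 of the AML group are red for most sterol genes.

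The replicate number also went with the level of the module. In DC-conditioned medium all of replicates 4 to 7 lay above all of replicates 1 to 3 for 19 of the 33 genes (57.6%, against 13.6% of all genes), with a median difference of 0.35. In fresh medium this held for 7 of 33 (21.2%, against 7.74%), with a median difference of 0.19. In AML-conditioned medium it held for 1 of 33 (*Acaca*, 3.03%, against 4.64%), and there replicates 6 and 7 both lay above replicates 1 to 3 for 22 of 33 genes (66.7%, against 13.5%). The reverse, all of replicates 4 to 7 below all of replicates 1 to 3, held for 2 of 33 genes in AML-conditioned (6.01% of all genes), 1 in DC-conditioned (11.2%) and 1 in fresh medium (7.49%). Replicates 1 to 3 and 4 to 7 are only numbers in the labels, which name no batch, and this split had been seen in earlier results of these data.

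*Sqle* shows the pattern: replicates 4 to 7 ran from 8.64 to 8.71 and replicates 1 to 3 from 7.86 to 8.20 in DC-conditioned medium. In fresh medium replicates 4 to 7 ran from 8.16 to 8.57 and replicates 1 to 3 from 7.69 to 8.06. In AML-conditioned medium replicates 4 to 7 were at 8.01, 8.29, 8.53 and 8.54, and replicates 1 to 3 ran from 8.22 to 8.35. AML replicates 6 and 7 lay above AML replicates 1 to 3, and AML replicates 4 and 5 did not.

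**Figure D5:**
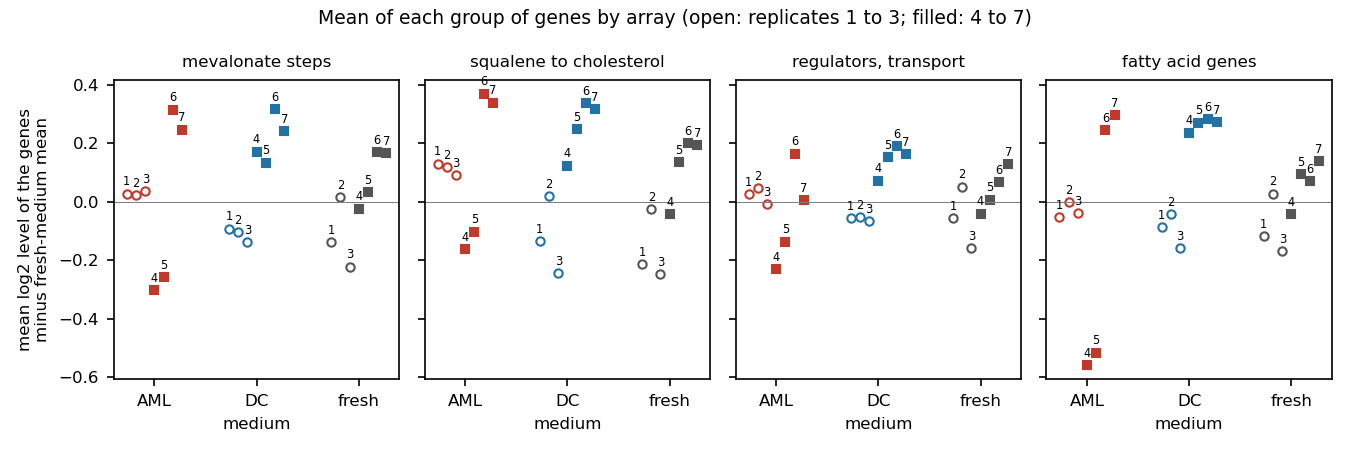
Mean log2 level of the genes of each role on each array, as the difference from the mean of the fresh arrays (y axis), by medium, AML-conditioned, DC-conditioned and fresh, for the mevalonate, squalene to cholesterol, regulator and transport, and fatty acid genes, with the replicate number beside each point. The fatty acid means of AML replicates 4 and 5 are -0.56 and -0.52, and those of AML replicates 6 and 7 are 0.25 and 0.30.

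Within replicates 1 to 3 alone, 26 of the 33 genes were higher in AML-conditioned than in fresh medium, against 44.99% of all genes, with a median of 0.14. The squalene to cholesterol genes were higher for 9 of 10, with a median of 0.30. *Cyp51* was at 9.57, 9.94 and 9.75 on these AML arrays, against 9.07, 9.38 and 9.25 on the fresh arrays, and rose by 0.52 (SE 0.12, adjusted p = 0.0488), the 1 gene of the module that passed there, where 1.92% of all genes did. Within replicates 4 to 7 the count was 10 of 33, with a median of -0.04 and 0 genes passing, where 0.164% of all genes did. In replicates 6 and 7 of both media 28 of 33 genes were higher in AML-conditioned medium (47.9% of all genes), with a median of 0.14, and so were all 10 squalene to cholesterol genes, with a median of 0.17. DC-conditioned against fresh medium gave the same counts in these replicates, with medians of 0.12 each. Between AML-conditioned and DC-conditioned medium 16 of 33 were higher there, with a median of -0.004. Replicates 6 and 7 leave out AML replicates 4 and 5, which were picked out after their values were seen. For AML-conditioned against DC-conditioned medium the sets went opposite ways. Within replicates 1 to 3, 21 of 33 genes were higher (49.4% of all genes), with a median of 0.18. There 9 of 10 squalene to cholesterol genes were higher, with a median of 0.26. Within replicates 4 to 7, 3 of 33 genes were higher (52.4% of all genes), with a median of -0.14. This set holds AML replicates 4 and 5.

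For DC-conditioned against fresh medium, 18 of 33 genes were higher within replicates 1 to 3 (44.5% of all genes), with a median of 0.01, and 29 of 33 within replicates 4 to 7 (47.8% of all genes), with a median of 0.13. Within replicates 4 to 7 all 10 squalene to cholesterol genes were higher, and 0 of 33 genes passed in either set, and 0 of all genes (0%) did.

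With the 2 sets of replicates as a block in the fit, *Hsd17b7* at 0.32 (adjusted p = 0.0364) and *Acaca* at 0.23 (adjusted p = 0.0487) passed in AML-conditioned against fresh medium, where 5.26% of all genes did. With that block and without AML replicates 4 and 5, 6 of 33 genes rose, where 0.779% of all genes did: *Mvd* by 0.31, *Cyp51* by 0.34, *Msmo1* by 0.39, *Sc5d* by 0.30, *Fasn* by 0.40 and *Scd1* by 0.56 (SE 0.13, adjusted p = 0.0362). The other adjusted p-values lay between 0.0231 and 0.0480. That fit was chosen after the data were seen, and it leaves out the 2 arrays that were lowest for most of these genes, which by itself raises the AML means. Without AML replicates 4 and 5 and without the block, 0 of 33 genes passed, where 0.569% of all genes did, and *Scd1* differed by 0.46 (SE 0.21) and *Fads2* by 0.14 (SE 0.20).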

How the data were processed

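Gene expression of 21 samples was measured on 1-colour Affymetrix arrays. The deposited files hold log2 expression levels per transcript cluster. The authors obtained them with oligo and RMA, per the submitters' processing notes, and versions are not given in the sources used here. RMA corrects background, normalizes by quantiles, summarises probes and compresses differences at low levels. Of 22203 transcript clusters 19572 had 1 symbol. A symbol with several clusters (55 symbols) was represented by the cluster of highest mean, giving 19505 genes, all of which were tested.

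Differences came from 1 limma 3.58.1 fit (R 4.3.3, lmFit and eBayes) over the 21 arrays without covariates, two-sided, with Benjamini-Hochberg adjustment over all genes and a threshold of 0.05. The spread is shared between groups in that fit. The procedure was tested on simulated data.

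The members, lists and sets of replicates were chosen with earlier results of these data known. By rule, lowest, median and highest levels were given for the efflux genes and the 2 genes of each other role with the smallest p against fresh medium; other genes detailed were picked after their values were seen. Alternatives were the replicate number or set as a block, single sets, arrays left out, array weights, scaling, a filter on genes with a low mean, averaged clusters, and trended robust eBayes.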

Additional observations from a re-analysis of the deposited data

Results flagged for a closer look

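Among 99 groups of 7 arrays (33 genes in 3 media), 4 held 1 array far from the other 6, where chance gives about 4.95. *Pmvk* was lowest on fresh replicate 3 at 7.47, against 7.67 on the nearest fresh array. *Idi1* was highest on AML replicate 6 at 9.30, against 8.86 on the nearest AML array. *Acss2* was lowest on DC replicate 5 at 7.46, against 7.83 on the nearest DC array. *Elovl5* was lowest on fresh replicate 4 at 10.83, against 10.96 on the nearest fresh array. The pair of low AML arrays for *Scd1* and *Fads2* is not among these, since a rule on 1 array far from the rest does not see 2 that lie together.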

How the results depend on the processing

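Of the 34 alternatives, 21 each left out 1 array. The count of 0 genes of the module called held in AML-conditioned against fresh medium under 30 of 34 alternatives, in DC-conditioned against fresh medium under 34 of 34 and in AML-conditioned against DC-conditioned medium under 33 of 34, leaving out any 1 array included (0 to 0). Every fit with the replicate number or set as a block gave a count above 0 in AML-conditioned against fresh medium. In AML-conditioned against fresh medium it was 2 with the replicate number as a block (*Hsd17b7*, adjusted p = 0.0194, and *Fasn*, adjusted p = 0.0325, where 5.19% of all genes passed), 2 with the sets as a block, 1 in replicates 1 to 3 alone and 6 with the set block and without AML replicates 4 and 5, where the median was 0.21 and *Scd1* turned to 0.56. In AML-conditioned against DC-conditioned medium it was 1 with that last fit (*Mvd* at 0.32, where 1.32% of all genes passed), and the median was 0.18 in replicates 1 to 3 alone. Deviations taken from the group mean called 1 gene for spread against fresh (*Scd1*) and 1 against DC-conditioned medium (*Insig1*), where 40 and 51 of all genes were called. Of 3363 values of single genes, 12 passed the threshold that the reported value had not (11 in the reported direction and *Scd1* in the other), 0 lost a call and 166 changed sign, 1 of them (that of *Scd1*) with a call. The replicate numbers were not taken as pairs. Of 21 pairs of arrays with the same number 13 correlated over 0.1 (lowest -0.11, highest 0.36). Of the 21 arrays 7 correlated most, among arrays of the other media, with one of their own number. These values do not settle whether the numbers are pairs, so the fit with them as a block is given beside the reported one. All genes called in AML-conditioned against fresh medium numbered 541 as reported, 1012 with the replicate block, 1026 with the set block, 32 in replicates 4 to 7, 246 with the 2 groups alone, 111 without AML replicates 4 and 5, 316 with the set block as well, and 249, 218, 299 and 341 without, in this order, AML replicate 4 or 5 or fresh replicate 2 or 4. For AML-conditioned against DC-conditioned medium they numbered 466 as reported, 784, 797, 43, 249, 92 and 258 in that order of settings, and 220, 242, 784, 308 and 289 without AML replicate 4, 5 or 6, or DC replicate 4 or 7. In DC-conditioned against fresh medium they numbered 0 to 2. Centring each array on its median gave 289 genes higher and 197 lower in AML-conditioned against fresh medium, in place of 253 and 288. *Cd4* did not pass without AML replicates 4 and 5 (adjusted p = 0.0622) or in replicates 4 to 7 alone (adjusted p = 0.155). The causes of these changes were not tested.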
